A study of Homo sapiens with 6 samples.

Results

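The 9 enzymes that carry lanosterol synthesis through to cholesterol were followed at the transcript level in 3 human lung cancer cell lines. They were chosen as named genes of the pathway, LSS, CYP51A1, TM7SF2, MSMO1, NSDHL, HSD17B7, EBP, SC5D and DHCR7, and are 9 of the 26485 genes in the deposited tables. The lines were PC9-AMG, PC9-BrM4 and the parental PC9, with 2 libraries of each, and all were kept in conventional culture with no further treatment named in the labels. PC9 is a lung adenocarcinoma line that carries a mutant EGFR, a background shared by its sublines. As background that the labels do not state, PC9-BrM4 is a derivative selected for growth as brain metastases. The labels do not spell out AMG. Nothing says that the 2 libraries of a line came from separate cultures, so the spread that p-values measure here may be technical. Differences are between single lines, not between classes of lines.

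Cholesterol is made in the endoplasmic reticulum from acetyl-CoA, and the steps up to squalene epoxide form the upper pathway. LSS folds squalene epoxide into lanosterol, the first sterol, and the other enzymes remove methyl groups from lanosterol and shift or reduce its double bonds until cholesterol is reached. Many genes of the pathway are known targets of the SREBP transcription factors, chiefly SREBF2 (SREBP2), which are released from the membrane when sterols run low and act with the promoter factors NF-Y and SP1.

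The aligned sequence behind a library, estimated from the ratio of deposited coverage to FPKM, was 3.93 and 4.39 gigabases in PC9-AMG, 3.13 and 3.84 in PC9-BrM4, against 3.42 and 2.66 in PC9. Levels are given as TPM (transcript abundance scaled for gene length, with a fixed total per library), and differences as log2 fold changes of TPM + 1. Genes reaching 1 TPM in at least 2 of the 6 libraries were tested, 14195 in all with the 9 enzymes among them. A gene passed at a limma adjusted p (Benjamini-Hochberg over all tested genes) under 0.05. All 5 epithelial markers were expressed, with summed levels of 10948 to 11198 TPM in PC9-AMG, 7553 to 7713 TPM in PC9-BrM4 and 9380 to 9405 TPM in PC9. That sum has the same order of lines as the enzymes, and its part in the results was not tested. The order comes from KRT8 and KRT18, the most abundant of the 5. EPCAM had 680 and 667 TPM in PC9-AMG, 726 and 706 TPM in PC9-BrM4, against 673 and 665 TPM in PC9, while KRT19 was highest in PC9 and CDH1 lowest there. The 3 lung lineage markers summed to at most 0.279 TPM in PC9-AMG, 0.407 TPM in PC9-BrM4 and 0.887 TPM in PC9. Of 3 leukocyte markers CD68, which epithelial lines can also express, stood at 39.9 to 49.2 TPM and the others were below 0.2 TPM, and of 4 fibroblast markers COL1A2, DCN and PDGFRA were listed at 0. COL1A1 had 14.4 and 14.8 TPM in PC9-AMG, 3.68 and 4.43 TPM in PC9-BrM4, against 4.77 and 5.02 TPM in PC9, the same order of lines, and its part in the results was not tested. The endothelial markers PECAM1 and VWF summed to at most 2.16 TPM in any library.

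All 9 enzymes were highest in PC9-AMG and lowest in PC9-BrM4 by their means. In PC9-AMG 8 of 9 rose against PC9 and HSD17B7 did not pass. Of all tested genes 27.8% rose and 27.7% fell there, 55.5% together. In PC9-BrM4 6 of 9 fell against PC9, 0 rose, and LSS, NSDHL and DHCR7 did not pass. Of all tested genes 23.4% rose and 23.1% fell there, 46.6% together. In PC9-AMG all 9 rose against PC9-BrM4, where 28.1% of all tested genes rose and 28.0% fell, 56.1% together. In RNA from whole cultures, fewer cells with a transcript and less of it per cell cannot be told apart. The median log2 fold change of the 9 against PC9 was 0.53 in PC9-AMG and -0.47 in PC9-BrM4, where the medians of all tested genes were -0.0058 and -0.0016. Both comparisons use the same PC9 libraries. For PC9-AMG against PC9-BrM4 the median was 0.89, against -0.0059 over all tested genes. PC9-AMG lay above PC9 in both libraries for 8 of 9 enzymes and for 39.6% of all tested genes. For 8 of 9 enzymes the libraries of the 3 lines fell in separate ranges in the order PC9-AMG, PC9, PC9-BrM4, an arrangement found for 10.1% of all tested genes.

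**Figure D1:**
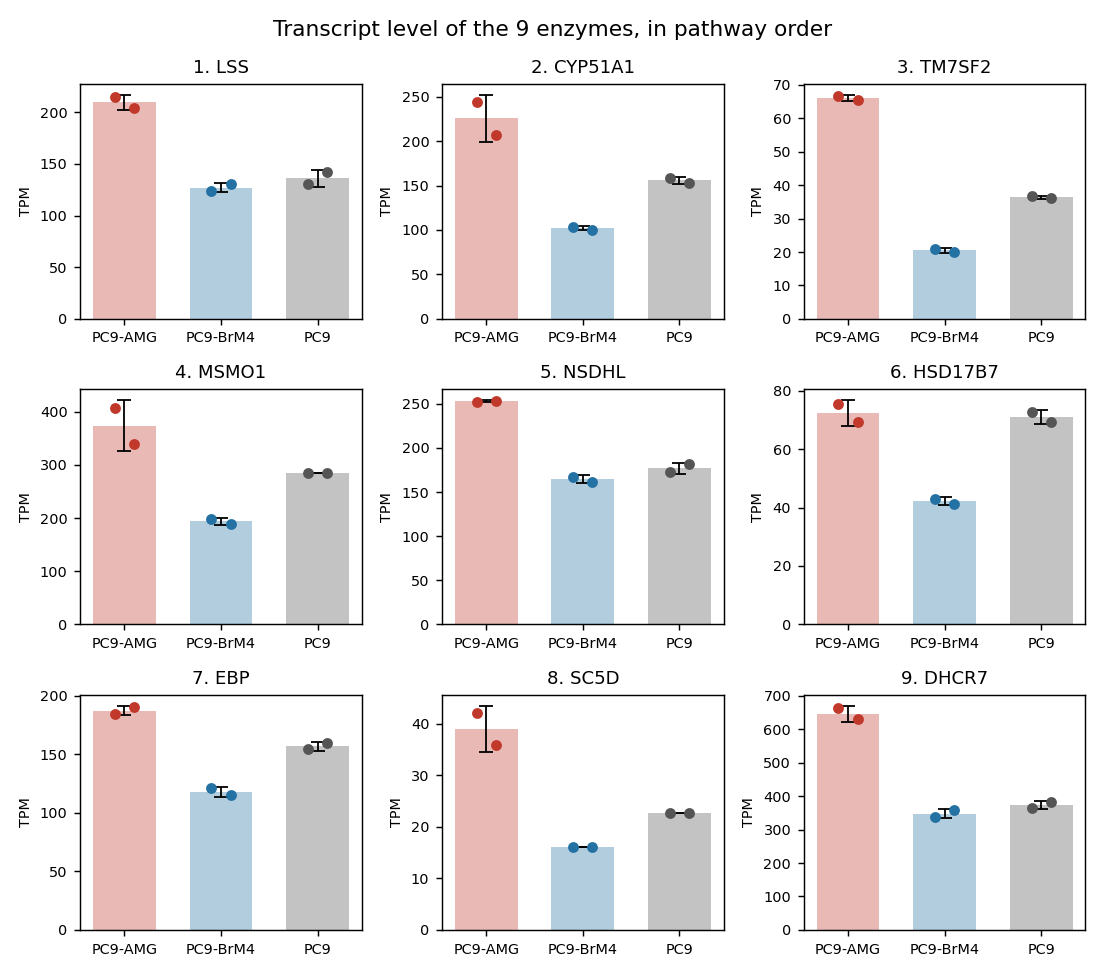
Transcript level (TPM, linear axes from 0) of each enzyme in pathway order, with 1 point per library, bars at the mean and error bars for the SD (n = 2). PC9-AMG stands highest and PC9-BrM4 lowest in each panel, and only in the HSD17B7 panel do the points of PC9-AMG (75.5 and 69.3 TPM) overlap those of PC9 (72.7 and 69.4 TPM).

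LSS, the cyclase that makes lanosterol (chromosome 21, 46188446 to 46228824, hg38), had 214.7 and 204.5 TPM in PC9-AMG, 123.8 and 130.2 TPM in PC9-BrM4, and 130.3 and 142.02 TPM in PC9. The PC9-AMG libraries stood clear of the others, while the highest PC9-BrM4 library lay just under the lowest PC9 library. LSS rose in PC9-AMG with a log2 fold change of 0.62 (SE 0.056, limma adjusted p = 0.000107). In PC9-BrM4 its log2 fold change was -0.10 (SE 0.056, limma adjusted p = 0.187), with a 95% interval of 0.853- to 1.02-fold, so a fall of up to that size is not excluded. CYP51A1, the cytochrome P450 that demethylates lanosterol (chromosome 7, 92112149 to 92134745), had 244 and 207 TPM in PC9-AMG, 103.7 and 100.2 TPM in PC9-BrM4, and 158 and 153 TPM in PC9. The 3 lines did not overlap, and the PC9-AMG libraries differed most from each other. CYP51A1 rose in PC9-AMG by 0.53 (limma adjusted p = 0.00081) and fell by 0.61 on the log2 scale in PC9-BrM4 (limma adjusted p = 0.000555). The fall in PC9-BrM4 missed the threshold when the level of neighbouring genes was removed, as given with the chromosomal surroundings. Its model shares 183 bases with the antisense CYP51A1-AS1, which had at most 0.406 TPM in PC9-AMG, 0.302 TPM in PC9-BrM4 and 0.365 TPM in PC9.

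TM7SF2 reduces the double bond that CYP51A1 leaves (chromosome 11, 65111854 to 65116235). It had 66.8 and 65.5 TPM in PC9-AMG, 21.0 and 19.95 TPM in PC9-BrM4, and 36.6 and 36.04 TPM in PC9. These are 3 tight and separate pairs. Its mean was 1.82 times that of PC9 in PC9-AMG, 0.564 times in PC9-BrM4, and 3.23 times that of PC9-BrM4 in PC9-AMG, in each case the largest difference among the 9 enzymes. The log2 fold changes were 0.85, -0.80 and 1.64 (SE 0.054; limma adjusted p = 2.62e-05, 3.93e-05 and 9.82e-07). Its model shares 7 bases with the end of VPS51 on the same strand, which had 74.5 and 69.6 TPM in PC9-AMG, 63.7 and 71.4 TPM in PC9-BrM4, and 59.2 and 57.7 TPM in PC9.

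LBR, the lamin B receptor, is a protein of the nuclear envelope that catalyses the same reduction as TM7SF2. It had 217 and 200.7 TPM in PC9-AMG, 180.1 and 178 TPM in PC9-BrM4, and 198 and 195 TPM in PC9. In TPM, which is scaled for length, LBR therefore stood above TM7SF2 in each of the 6 libraries. The ratio of TM7SF2 to LBR was 0.308 and 0.326 in PC9-AMG, 0.117 and 0.112 in PC9-BrM4, and 0.185 in both PC9 libraries. LBR itself rose in PC9-AMG against PC9-BrM4 (log2 fold change 0.22, limma adjusted p = 0.00562). It did not pass in PC9-AMG against PC9 (0.09, limma adjusted p = 0.152) or in PC9-BrM4 against PC9 (-0.13, limma adjusted p = 0.0531). The difference between the changes of TM7SF2 and LBR was not tested.

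The next 3 enzymes work as a cycle that strips the remaining paired methyl groups. MSMO1, the methylsterol monooxygenase that opens it (chromosome 4, 165327666 to 165343162), had 408 and 340.1 TPM in PC9-AMG, 199 and 189.6 TPM in PC9-BrM4, and 284.8 and 284.6 TPM in PC9. The lines did not overlap, and PC9-AMG had the widest spread. MSMO1 rose in PC9-AMG (log2 fold change 0.39, SE 0.078, limma adjusted p = 0.00438) and fell in PC9-BrM4 (-0.55, SE 0.078, limma adjusted p = 0.00109). Without PC9-AMG replicate 1 the rise was 0.26 (limma adjusted p = 0.00997). NSDHL, the decarboxylating dehydrogenase (chromosome X, 152830967 to 152869363), had 252.6 and 253.7 TPM in PC9-AMG, 167.5 and 161 TPM in PC9-BrM4, and 172 and 182 TPM in PC9. NSDHL rose in PC9-AMG (0.52, SE 0.044, limma adjusted p = 8.39e-05). The PC9-BrM4 libraries were below those of PC9 by a small margin, with -0.10 (limma adjusted p = 0.089) and an interval of 0.866- to 0.999-fold before adjustment.

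HSD17B7, the keto reductase that closes the cycle (chromosome 1, 162790702 to 162812818), had 75.5 and 69.3 TPM in PC9-AMG, 43.1 and 41.4 TPM in PC9-BrM4, and 72.7 and 69.4 TPM in PC9. PC9-BrM4 was apart and the other lines overlapped. HSD17B7 fell in PC9-BrM4 (log2 fold change -0.74, SE 0.059, limma adjusted p = 8.13e-05). In PC9-AMG its log2 fold change against PC9 was 0.03 (limma adjusted p = 0.728), with a 95% interval of 0.926- to 1.12-fold. That interval lies below that of each of LSS, CYP51A1, TM7SF2, MSMO1, NSDHL, SC5D and DHCR7 in the same comparison, and overlaps that of EBP, although the difference between enzymes was not tested.

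HSD17B7 has a near-identical pseudogene, HSD17B7P2 on chromosome 10, so reads can be split between them and its level is uncertain. Of the 1023 coding bases of HSD17B7 that align to the HSD17B7P2 transcript in GENCODE release 29, 99.0% are the same, with 10 substitutions. HSD17B7P2 also carries insertions of 6 bases after coding position 237 and 1 base after position 630, and the longest shared run is 188 bases. Shown as the stretch with the closest substitutions, coding positions 177 to 236 hold the neighbouring changes G207A and G208T, counted from the A of the start codon and printed in capitals, and every other base there is shared.
HSD17B7: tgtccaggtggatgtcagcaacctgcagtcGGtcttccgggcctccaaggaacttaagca
HSD17B7P2: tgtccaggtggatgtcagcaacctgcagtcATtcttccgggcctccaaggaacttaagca
HSD17B7P2 was listed at 22.8 and 23.02 TPM in PC9-AMG, 14.7 and 11.4 TPM in PC9-BrM4, and 19.8 and 23.5 TPM in PC9. HSD17B7P2 fell in PC9-BrM4 (log2 fold change -0.70, limma adjusted p = 0.00289) and did not pass in PC9-AMG against PC9 (0.08, limma adjusted p = 0.596). It held 23.2% and 24.9% of the summed TPM of the pair in PC9-AMG, 25.4% and 21.6% in PC9-BrM4, against 21.4% and 25.3% in PC9, which are overlapping ranges. With the pair summed, the log2 fold changes of HSD17B7 were 0.04 in PC9-AMG and -0.74 in PC9-BrM4 against PC9 (limma adjusted p = 0.597 and 7.94e-05).

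EBP, the isomerase that shifts the ring double bond (chromosome X, 48521776 to 48528716), had 184 and 190.1 TPM in PC9-AMG, 121 and 115 TPM in PC9-BrM4, and 154 and 159 TPM in PC9. The lines did not overlap. EBP rose in PC9-AMG (log2 fold change 0.26, SE 0.046, limma adjusted p = 0.00249), the smallest of the 8 rises, and fell in PC9-BrM4 (-0.41, limma adjusted p = 0.000373). SC5D, the desaturase that follows (chromosome 11, 121292679 to 121313410), had 42.1 and 35.8 TPM in PC9-AMG, 16.1 and 16.01 TPM in PC9-BrM4, and 22.6 TPM in each PC9 library. SC5D rose in PC9-AMG (0.75, SE 0.081, limma adjusted p = 0.00023) and fell in PC9-BrM4 (-0.47, SE 0.081, limma adjusted p = 0.00272). The ratio of coverage to FPKM for SC5D was 1.06 to 1.75 over the libraries, below the medians over genes of 2.66 to 4.39. The distance of SC5D from the other enzymes thus depends on which deposited measure is read. HSD17B7 (2.28 to 3.78) and LSS (2.37 to 3.93) also lay below the median of each library, by less than SC5D. CYP51A1, NSDHL, MSMO1 and DHCR7 lay below it in each library too, by still smaller margins.

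DHCR7 makes cholesterol from its immediate precursor (chromosome 11, 71434411 to 71448431), and loss of its function causes Smith-Lemli-Opitz syndrome. It had 663 and 629 TPM in PC9-AMG, 338 and 358 TPM in PC9-BrM4, and 364 and 381 TPM in PC9. DHCR7 rose in PC9-AMG (log2 fold change 0.79, SE 0.049, limma adjusted p = 2.31e-05). In PC9-BrM4 the libraries stood just under those of PC9, with -0.10 (limma adjusted p = 0.131) and an interval of 0.862- to 1.01-fold. LSS, NSDHL and DHCR7 thus had means in PC9-BrM4 of 0.933, 0.930 and 0.933 times those in PC9. The libraries of PC9-BrM4 lay below those of PC9 for these 3 as for the other 6 enzymes, which held for 37.8% of all tested genes.

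**Figure D2:**
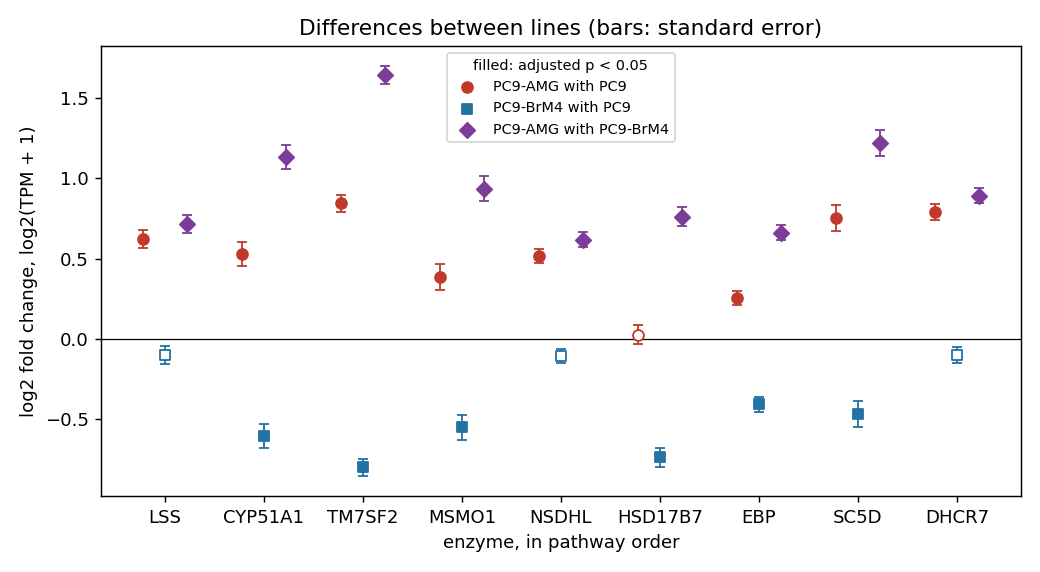
Log2 fold change of each enzyme (vertical axis, log2 of TPM + 1) in pathway order for the 3 comparisons, with bars for the standard error and open symbols where the limma adjusted p was 0.05 or more. PC9-AMG with PC9 lies above 0 and PC9-BrM4 with PC9 below it, and the 4 open symbols are HSD17B7 at 0.03 in PC9-AMG, and LSS, NSDHL and DHCR7 at -0.10 in PC9-BrM4.

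PC9-AMG against PC9-BrM4 uses no PC9 library in its means. Each log2 fold change there equals that of PC9-AMG less that of PC9-BrM4, both against PC9. The mean of PC9 lay between the other lines for all 9 enzymes, so the larger differences here follow from that and are no independent result. Each of the 9 enzymes rose, and the groups did not overlap for any of them, which held in that direction for 38.2% of all tested genes. The log2 fold changes were 1.64 for TM7SF2, 1.22 for SC5D, 1.13 for CYP51A1, 0.94 for MSMO1 and 0.89 for DHCR7. They were 0.76 for HSD17B7, 0.72 for LSS, 0.66 for EBP and 0.62 for NSDHL, with limma adjusted p from 9.82e-07 (TM7SF2) to 5.62e-05 (MSMO1) over the 9.

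Among the enzymes, DHCR7 had the highest TPM and SC5D the lowest in every line. MSMO1 and NSDHL followed DHCR7 in that order in each. EBP and CYP51A1 overlapped in PC9 (means of 157 and 156 TPM) and CYP51A1 and LSS in PC9-AMG (226 and 209.6 TPM), while all other neighbours in the order were separate in their libraries. By deposited coverage DHCR7, MSMO1, NSDHL and SC5D kept their places in each library, and others changed. TM7SF2 stood above HSD17B7 in PC9-AMG, with coverage of 110 and 123 for TM7SF2 and 107 and 112 for HSD17B7. EBP stood above LSS in 1 of 2 libraries each of PC9-AMG and PC9-BrM4. The enzymes together held 2151 and 1995 TPM in PC9-AMG, 1133 and 1131 TPM in PC9-BrM4, and 1396 and 1429 TPM in PC9. The make-up of that sum also differed between lines. DHCR7 took 30.8% and 31.5% of it in PC9-AMG, 29.8% and 31.6% in PC9-BrM4, against 26.1% and 26.7% in PC9, so its share was larger in both sublines although its level was not higher in PC9-BrM4. HSD17B7 took 3.51% and 3.47% in PC9-AMG, 3.81% and 3.66% in PC9-BrM4, against 5.21% and 4.86% in PC9. MSMO1 also had a smaller share in both sublines, at 19.0% and 17.0% in PC9-AMG and 17.6% and 16.8% in PC9-BrM4, against 20.4% and 19.9% in PC9. These shares are descriptions with 2 libraries a line and were not tested.

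**Figure D3:**
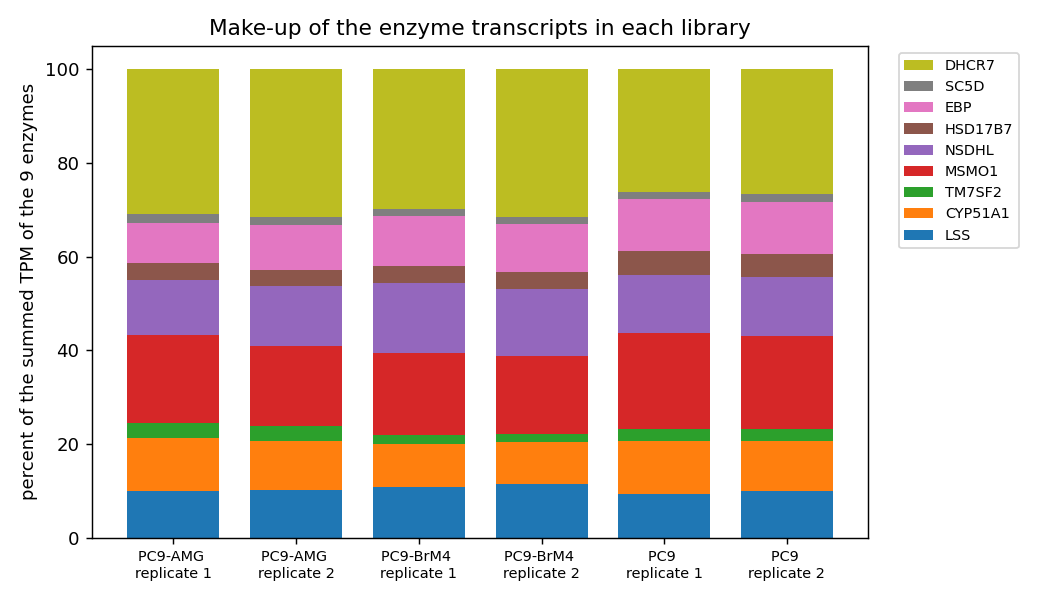
Percent of the summed TPM of the 9 enzymes that each enzyme holds (stacked, vertical axis) in each of the 6 libraries. The DHCR7 block is 29.8% to 31.6% in the sublines and 26.1% to 26.7% in PC9.

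The chromosomal surroundings of the enzymes were set beside them, to show whether an enzyme moved with its neighbours. Around CYP51A1 on chromosome 7 the median log2 fold change of the 45 tested genes within 5 Mb was -0.41 in PC9-BrM4, beside -0.61 for CYP51A1 itself. With the regional median removed from each library, CYP51A1 had -0.16 in PC9-BrM4 and missed the threshold (limma adjusted p = 0.0532). In PC9-AMG the 45 neighbours had a median of -0.16 while CYP51A1 rose. The surroundings of LSS on chromosome 21 lay on the other side of 0, with a median of 0.32 over 46 genes in PC9-BrM4 and 0.26 in PC9-AMG. With these removed LSS fell in PC9-BrM4 (log2 fold change -0.43, limma adjusted p = 0.00148). NSDHL and DHCR7 had 84 and 119 tested neighbours with medians of 0.13 and 0.09 in PC9-BrM4, and fell once these were removed (-0.23 and -0.19, limma adjusted p = 0.00723 and 0.0248). In PC9-AMG LSS still rose (0.38, limma adjusted p = 0.00198). On that reading 8 of 9 enzymes, all but HSD17B7, rose in PC9-AMG, where 25.8% of all tested genes rose. In PC9-BrM4 8 of 9, all but CYP51A1, fell, where 21.7% of all tested genes fell. In PC9-AMG against PC9-BrM4 the CYP51A1 neighbours had a median of 0.30. With regional medians removed CYP51A1 had 0.88 in that comparison, below MSMO1 (0.94) and DHCR7 (0.91), whereas it stood above both without the removal. DNA copy number was not measured in the data used here.

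**Figure D4:**
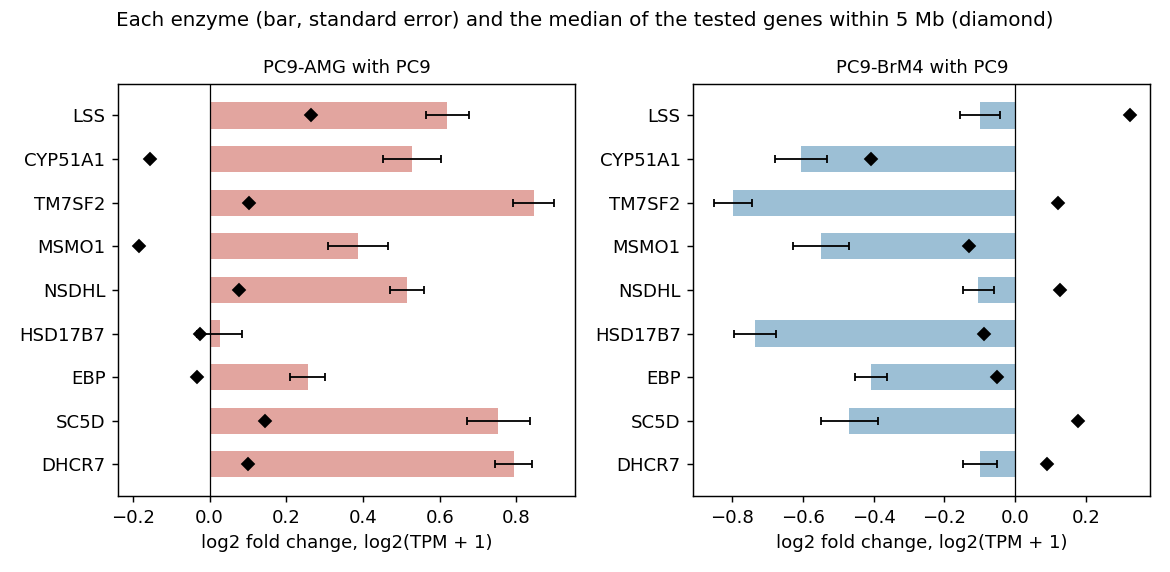
Log2 fold change of each enzyme (bars from 0, with standard error) and the median of the tested genes within 5 Mb of it (diamonds), for PC9-AMG with PC9 (left) and PC9-BrM4 with PC9 (right). In PC9-BrM4 the CYP51A1 neighbours sit at -0.41, close to the enzyme at -0.61, whereas the LSS neighbours sit at 0.32 on the other side of 0.

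RefSeq promoter windows (GRCh38.p14, 250 bases before to 50 after a start) were matched for all 9 enzymes, with 11 windows because SC5D and DHCR7 have a pair each. The SC5D windows overlap and hold the same CCAAT and E-box letters, so counts are given per enzyme. A CCAAT box, the letters CCAAT on either strand, to which NF-Y binds, was present for 8 of 9 enzymes, against 34.6% of all 34796 windows. The window of CYP51A1, which has none, lies downstream of the start of the deposited gene model and need not be its promoter. GGGCGG, the SP1 letters, was also present for 8 of 9, against 44.9% of all windows. The E-box CACGTG was found for 2 of 9, LSS and SC5D, against 7.20%. The background shares are per window, and by window CCAAT and GGGCGG were each found in 9 of 11 and the E-box in 3 of 11. The second DHCR7 window held none of them. The sterol regulatory element core TCACNCCAC was found for 0 of 9 and in 1.12% of all windows, which says only that these exact letters are not in these windows. The motifs do not overlap one another in letters, apart from CCAATTGG in NSDHL, which is read as CCAAT on each strand. Shown here are the windows of TM7SF2, with the largest differences, and of MSMO1, NSDHL and HSD17B7, with 4, 5 and 2 CCAAT boxes. Capitals mark CCAAT, or ATTGG where it lies on the other strand.
TM7SF2 (chr11:65111622-65111921, plus strand): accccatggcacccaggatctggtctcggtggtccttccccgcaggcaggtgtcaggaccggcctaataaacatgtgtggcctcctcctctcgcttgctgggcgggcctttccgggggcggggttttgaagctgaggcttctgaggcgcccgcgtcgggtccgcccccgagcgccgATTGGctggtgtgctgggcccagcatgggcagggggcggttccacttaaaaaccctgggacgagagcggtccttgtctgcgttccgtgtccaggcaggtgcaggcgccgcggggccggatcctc
MSMO1 (chr4:165327419-165327718, plus strand): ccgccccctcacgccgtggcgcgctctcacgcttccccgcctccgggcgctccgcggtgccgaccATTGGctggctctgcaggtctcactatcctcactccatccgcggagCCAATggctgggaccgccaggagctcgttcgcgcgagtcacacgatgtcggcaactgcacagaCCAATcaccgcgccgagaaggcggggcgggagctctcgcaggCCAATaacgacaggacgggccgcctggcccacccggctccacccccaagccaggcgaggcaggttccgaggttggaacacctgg
NSDHL (chrX:152830813-152831112, plus strand): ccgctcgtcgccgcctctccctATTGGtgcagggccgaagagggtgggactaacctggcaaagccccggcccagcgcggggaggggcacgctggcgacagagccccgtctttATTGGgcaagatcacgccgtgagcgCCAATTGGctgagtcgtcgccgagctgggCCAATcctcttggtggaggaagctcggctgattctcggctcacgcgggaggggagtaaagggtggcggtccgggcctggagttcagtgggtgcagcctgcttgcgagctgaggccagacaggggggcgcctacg
HSD17B7 (chr1:162790452-162790751, plus strand): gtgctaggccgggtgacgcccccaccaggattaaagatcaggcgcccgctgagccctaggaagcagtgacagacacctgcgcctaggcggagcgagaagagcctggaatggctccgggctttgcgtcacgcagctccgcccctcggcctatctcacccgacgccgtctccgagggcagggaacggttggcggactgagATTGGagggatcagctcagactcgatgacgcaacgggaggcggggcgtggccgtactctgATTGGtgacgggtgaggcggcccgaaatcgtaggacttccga
The single box of TM7SF2 begins 74 bases before the start, and the nearest boxes of MSMO1 and NSDHL begin 34 and 84 bases before it. Of the 2 boxes of HSD17B7, the first begins 52 bases before the start and the other lies after the start, at position 9. No binding was measured, so the motifs are a description of the sequence.

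The enzymes of the upper pathway, from acetyl-CoA to squalene epoxide, were set beside the 9. Of 10 tested, 6 rose and 2 fell in PC9-AMG against PC9 (median log2 fold change 0.29), where 27.8% and 27.7% of all tested genes did. In PC9-BrM4 against PC9, 1 rose and 9 fell (median -0.38), where 23.4% and 23.1% of all tested genes did. In PC9-AMG against PC9-BrM4, 9 rose and 1 fell (median 0.60), where 28.1% and 28.0% of all tested genes did. In PC9-AMG the decarboxylase MVD and the thiolase ACAT2 rose most (0.64 and 0.61, limma adjusted p = 8.39e-05 and 6.57e-05), and the kinase PMVK and the isomerase IDI1 fell (-0.35 and -0.24, limma adjusted p = 0.000829 and 0.0107). In PC9-BrM4 the synthase HMGCS1 and the epoxidase SQLE fell most (-0.56 and -0.53, limma adjusted p = 0.000695 and 0.000408), and PMVK rose (0.44, limma adjusted p = 0.000387). In PC9-AMG against PC9-BrM4, ACAT2 and SQLE rose most (1.07 and 0.88, limma adjusted p = 4.25e-06 and 2.36e-05) and PMVK fell (-0.79, limma adjusted p = 1.54e-05).

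Partners and parallel enzymes of the 9 were counted in the same way. Of 8 tested, 3 rose and 2 fell in PC9-AMG against PC9 (median log2 fold change 0.12), 1 rose and 4 fell in PC9-BrM4 against PC9 (median -0.15), and 5 rose and 1 fell in PC9-AMG against PC9-BrM4 (median 0.38). Of all tested genes 55.5%, 46.6% and 56.1% passed in the same order, so totals of 5, 5 and 6 of 8 are not far from the background. By direction, 27.8% of all tested genes rose and 27.7% fell in PC9-AMG against PC9. The shares were 23.4% and 23.1% in PC9-BrM4 against PC9, and 28.1% and 28.0% in PC9-AMG against PC9-BrM4. The 4 falls in PC9-BrM4 and the 5 rises in PC9-AMG against PC9-BrM4 thus exceeded these shares, which was not tested. FAXDC2 was below the expression filter. C14orf1 (ERG28), whose yeast counterpart holds the demethylation enzymes together, had 157 and 151 TPM in PC9-AMG, 80.9 and 75.6 TPM in PC9-BrM4, and 137 and 144 TPM in PC9. It fell in PC9-BrM4 (-0.84, limma adjusted p = 2.88e-05) and did not pass in PC9-AMG against PC9 (0.13, limma adjusted p = 0.0677). C14orf1 rose in PC9-AMG against PC9-BrM4 (0.97, limma adjusted p = 8.01e-06). POR, the electron donor of CYP51A1, rose in PC9-AMG (0.58, limma adjusted p = 7.54e-05), and the heme-binding protein PGRMC1 fell in PC9-BrM4 (-0.68, limma adjusted p = 2.41e-05). The EBP relative EBPL and the reductase CYB5R3 fell in PC9-AMG (-0.44 and -0.15, limma adjusted p = 0.000881 and 0.0301). In PC9-AMG against PC9-BrM4, CYB5R3 was the 1 that fell (-0.17, limma adjusted p = 0.0162), beside 5 that rose.

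Of 15 tested SREBP regulators and sterol handling genes, 8 rose and 5 fell in PC9-AMG against PC9 (median log2 fold change 0.24), 1 rose and 7 fell in PC9-BrM4 against PC9 (median -0.08), and 8 rose and 4 fell in PC9-AMG against PC9-BrM4 (median 0.24). Among all tested genes 55.5%, 46.6% and 56.1% passed in the same order. The number passing in PC9-BrM4 against PC9 is thus not far from the background. There 1 rose and 7 fell, where 23.4% and 23.1% of all tested genes did. ABCG1 was below the filter. SREBF2 had 165 and 151 TPM in PC9-AMG, 113 and 122 TPM in PC9-BrM4, and 148 and 149 TPM in PC9. It fell in PC9-BrM4 (-0.34, limma adjusted p = 0.00244) and did not pass in PC9-AMG (0.08, limma adjusted p = 0.243). SREBF1 did not pass in PC9-AMG (-0.06) or PC9-BrM4 (-0.02) against PC9 (limma adjusted p = 0.301 and 0.772). INSIG1, a sterol-sensing brake on SREBP and itself a target, rose in PC9-AMG (0.31, limma adjusted p = 0.00583) and fell in PC9-BrM4 (-0.60, limma adjusted p = 0.00033).

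The lysosomal exporter NPC1 also rose in PC9-AMG (0.60, limma adjusted p = 0.000991), whereas the lysosomal carrier NPC2 and the oxysterol receptor NR1H3 fell there (-1.53 and -0.74, limma adjusted p = 4.13e-06 and 0.00011). STARD4, a sterol carrier, fell in PC9-BrM4 (-1.62, limma adjusted p = 3.29e-05), and SCAP, the SREBP escort, rose there (0.32, limma adjusted p = 0.00696). In PC9-AMG against PC9-BrM4, STARD4 and INSIG1 rose most (2.09 and 0.90, limma adjusted p = 5.79e-06 and 2.93e-05), and NPC2 and NR1H3 fell (-0.94 and -0.35, limma adjusted p = 1.42e-05 and 0.00341). The counts for these lists are descriptions, and no list was tested as a set.

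**Figure D5:**
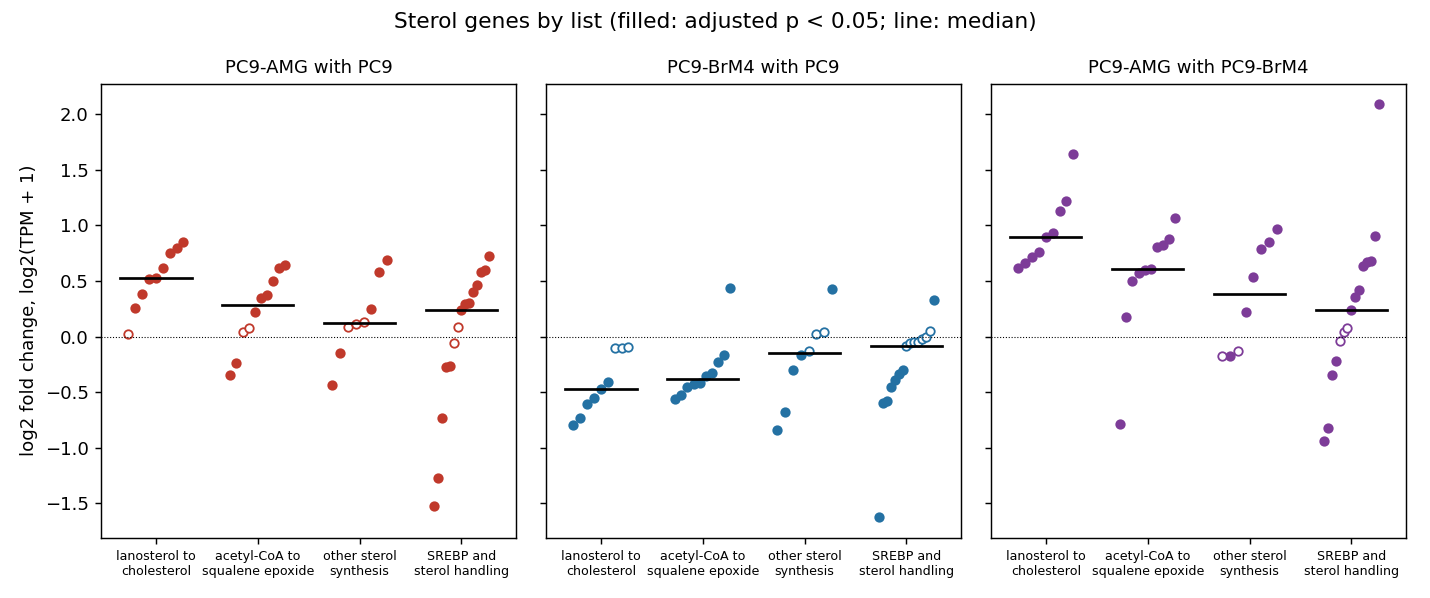
Log2 fold change (vertical axis, log2 of TPM + 1) of each tested gene in 4 lists of sterol genes, with a panel each for PC9-AMG and PC9-BrM4 over PC9 and for PC9-AMG over PC9-BrM4, open symbols where the limma adjusted p was 0.05 or more and lines at the medians. The 9 enzymes lie on one side of 0 in each panel, with medians of 0.53, -0.47 and 0.89, while the regulators spread to both sides.

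The mean profile of the 9 enzymes over the 6 libraries, as log2 values centred per gene, was 0.55 and 0.44 in PC9-AMG, -0.45 and -0.47 in PC9-BrM4, against -0.04 and -0.02 in PC9. Of the 9 enzymes MSMO1 lay nearest to it, with a root mean square difference of 0.0767 over the 6 libraries, and TM7SF2 (0.283) and HSD17B7 (0.207) farthest. The other tested genes averaging 10 TPM or more numbered 9448, and the 5 nearest were RNF41 (0.0356), RHBDL2 (0.0437), CHMP2A (0.0453), MEST (0.0459) and CLIP4 (0.0486). The thiolase ACAT2 ranked 7, FDPS 16 and SQLE 31 by the same measure, and INSIG1 74. SREBF2 ranked 788 and LBR 1651. Other genes of the same lists lay far from the profile, among them IDI1 (rank 3023), STARD4 (7813), NR1H3 (8416), PMVK (9018) and NPC2 (9318). The ranking has only 3 lines behind it and carries no test.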

How the data were processed

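Messenger RNA of 3 cell lines was sequenced, with 2 libraries each. The labels' protocols name TRIzol for extraction and TruSeq Stranded mRNA for the libraries. StringTie 1.3.4d, HISAT2 2.1.0, bcl2fastq and the build hg38 appear in the submitters' processing notes, without roles. The sources used here name no annotation release. Per the file headers, the authors deposited TPM, FPKM and coverage per gene for each library. The tables of PC9-AMG carry EMG in their names and were assigned by the sample records. A table of the whole series with 6 columns was left out, as its headers name the sublines otherwise than the sample titles do.

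TPM lines of a symbol were summed (LSS has a second line at 0). Values as log2(TPM + 1) of all 6 libraries were fitted with limma 3.58.1 in R 4.3.3, 1 mean per line, with a mean-variance trend and 3 residual degrees of freedom, and the fit was tested on simulated data. No read counts could be used, so depth is an estimate and no counting interval is given. Replicates differed by a median of 0.0810 (PC9-AMG), 0.0868 (PC9-BrM4) and 0.0622 (PC9) log2 units. Same-numbered replicates did not deviate together (correlations of -0.0691 to -0.0277), so the numbers were not taken as pairs. The members, lists, motifs and naming rule (from the other lists, up to 2 largest rises and 2 largest falls with at least 10 TPM, and 6 fixed genes) were chosen with earlier results of these data known. Some genes that the rule names are not reported here. Planned protein comparisons were not made, since no protein sequences were used here.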

Additional observations from a re-analysis of the deposited data

How the results depend on the processing

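Of 408 refitted fold changes of the 9 enzymes, 403 kept their side of the threshold, and no called value changed sign. The alternatives were a pseudocount of 0.1, no filter, a filter of 5 TPM, FPKM, median-ratio scaling, quantile normalization, limma without trend, only the compared lines, the replicate block, regional medians removed, the HSD17B7 pair summed, each library left out and, chosen after the data were seen, coverage scaled to a fixed total. Besides the 4 calls that moved with regional medians removed, NSDHL passed as lower in PC9-BrM4 with quantile normalization (-0.14, limma adjusted p = 0.0319). The count of enzymes called in PC9-AMG against PC9 was 8 in every setting and in PC9-AMG against PC9-BrM4 9 in every setting. In PC9-BrM4 against PC9 it was 6, except 7 with quantile normalization and 8 with regional medians removed, and the 8 leave out CYP51A1. In PC9-AMG, HSD17B7 ranged from -0.03 to 0.09 (limma adjusted p from 0.287 to 0.958).

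With the replicate block 8, 6 and 9 enzymes passed (PC9-AMG over PC9, PC9-BrM4 over PC9, PC9-AMG over PC9-BrM4), as without it, and 7457, 6126 and 7599 of all genes passed, against 7882, 6608 and 7962 without it. With 1 library left out, the count over all genes was 6013 to 6451, 4604 to 5701 and 6499 to 7060 in the same order. A line left with 1 library is assumed to vary like the others. The 2 libraries per line and an estimated depth limit what small differences can be seen, such as those of LSS, NSDHL and DHCR7 in PC9-BrM4.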
